A study of Mus musculus with 62 samples.

Results

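Nucleic-acid sensing genes, mouse genes whose products detect foreign or misplaced nucleic acids, or pass that signal on, were examined in chromatin maps of bone marrow progenitors that lack the H3.3 chaperone Daxx. They were Ifih1, Ddx58, Mavs, Tlr3, Tlr9, Zbp1 and Aim2, 7 of the 55450 genes of the GENCODE M21 annotation on mm10. All sites that overlapped a gene body or the 20 kb on either side of it were taken as its sites, a rule that uses position only. This gave 446 sites among the 1743368 listed in 14 tables of differential sites, and 12 of these tables held at least 1. Every member had sites, from 26 at Tlr3 to 125 at Aim2.

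The cells were lineage-negative, c-Kit+ haematopoietic stem and progenitor cells (HSPCs), enriched on magnetic beads from the bone marrow of C57BL/6 mice. Antibody-directed tagmentation (CUT&Tag) was used on their nuclei against the histone variant H3.3, the myeloid transcription factor Pu.1, the active mark H3K27ac and the repressive marks H3K9me3 and H3K27me3. WT mice were Daxx +/+ Cre +/-, Daxx-KO mice were Daxx F/F Cre +/- and DKO mice were F/F for both Daxx and Pu.1 and also Cre +/-, so that the controls carried Cre too. WT and Daxx-KO were compared at 3, 8 and 24 weeks after induction of Cre (wpi), and DKO was compared with both at 8 wpi. Each group had 2 libraries at 3 and 24 wpi and 3 at 8 wpi. Of 62 samples 54 were in these tables, and the 8 DKO samples at 24 wpi were not analysed here. In the floxed Daxx allele exons 2 to 7 lie between loxP sites. The labels name neither the Cre line nor the age of the mice. The study used Mx1Cre, induced with the synthetic double-stranded RNA pI:pC, and Rosa26CreERT2, induced with tamoxifen. DKO mice were made on Mx1Cre. The agent pI:pC is itself a ligand of Tlr3 and of the Ifih1 product, and the labels do not say which libraries came from mice that received it. By the mouse numbers in the labels and file headers, the libraries of a group were from different mice, while different antibodies shared mice. All antibodies at 24 wpi, both marks at 8 wpi, H3.3 and Pu.1 at 3 wpi, and H3K27ac and H3K9me3 at 3 wpi were each made from one set of animals, and 1 WT mouse was in all 4 antibodies of 3 wpi. Tables of the same time are therefore not independent.

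As background, the Ifih1 product MDA5 and the Ddx58 product RIG-I bind viral double-stranded RNA in the cytosol and signal through the adaptor encoded by Mavs on mitochondria. Tlr3 and Tlr9 are receptors in endosomes, for double-stranded RNA and for unmethylated CpG DNA. The Zbp1 product binds left-handed Z-form nucleic acids and can start necroptosis, and the Aim2 product binds cytosolic DNA and builds an inflammasome. Several of these genes are induced by interferon, and they can also respond to transcripts of endogenous retroviruses. H3K27ac marks active promoters and enhancers, H3K27me3 the regions silenced by Polycomb, and H3K9me3 heterochromatin.

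Stretches of sequence that the results below turn on are given first, from the mm10 genome. The promoters of Ddx58 and Tlr9 are shown because their H3K27ac differed in opposite directions at 24 wpi, and an intron of Ddx58 because H3.3 and Pu.1 were both higher there at 3 wpi on repeated letters. Promoters start 250 bases before the RefSeq start of the gene and end 25 bases after it. In the promoter of Ddx58, at chr4:40239801-40240075 on the minus strand, capitals mark a match to the interferon response element, searched as GAAA, any 2 letters and GAAA again. In that of Tlr9, at chr9:106222348-106222622 on the plus strand, they mark a match to the Pu.1 motif GAGGAAGT. Both matches lie just after the start and read on the opposite strand.

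Ddx58 promoter: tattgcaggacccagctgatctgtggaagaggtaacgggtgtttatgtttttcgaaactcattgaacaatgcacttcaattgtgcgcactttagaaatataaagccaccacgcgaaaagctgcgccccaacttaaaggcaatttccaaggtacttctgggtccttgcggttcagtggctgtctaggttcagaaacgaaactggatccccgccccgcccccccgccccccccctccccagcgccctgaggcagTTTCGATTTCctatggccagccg
Tlr9 promoter: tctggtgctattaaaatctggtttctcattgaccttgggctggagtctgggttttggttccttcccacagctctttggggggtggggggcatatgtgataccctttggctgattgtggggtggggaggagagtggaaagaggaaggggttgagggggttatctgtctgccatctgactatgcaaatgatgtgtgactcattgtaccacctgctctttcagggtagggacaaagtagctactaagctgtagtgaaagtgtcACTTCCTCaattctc

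RefSeq promoters of 250 bases before to 50 after the start were at hand for 6 of the members, all but Zbp1. On either strand GAGGAAGT was in those of Tlr9 and Aim2, the interferon element in those of Ddx58 and Ifih1, and neither in those of Mavs and Tlr3. Of 32851 promoters of this length 3.2% held GAGGAAGT and 3.44% held the interferon element. A match describes the letters and shows no binding.

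The intron of Ddx58, at chr4:40235876-40236175 on the minus strand, is a tandem repeat of 31 bp. In its 300 bases 90.0% of the letters matched the letter 31 further on, and capitals mark the 10 copies of its most frequent stretch of 12.

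Ddx58 intron: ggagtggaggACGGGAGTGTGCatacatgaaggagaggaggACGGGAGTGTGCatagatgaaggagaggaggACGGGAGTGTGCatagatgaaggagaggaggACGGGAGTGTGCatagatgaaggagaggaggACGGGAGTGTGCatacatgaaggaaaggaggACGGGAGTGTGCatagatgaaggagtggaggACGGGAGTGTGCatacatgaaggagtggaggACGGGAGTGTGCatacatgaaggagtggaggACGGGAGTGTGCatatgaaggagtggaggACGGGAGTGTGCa

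Values are normalized counts, the reads of a library in a site divided by a constant of that library. The log2 ratio is that of the group means after adding 1, first group over WT unless another control is named. A site is called higher where the mean of the first group is higher, and the groups do not overlap where all libraries of one lie above all of the other. A site is listed only if it passed the authors' own test between the same libraries. Directions and sizes are therefore given as a description, beside the same quantity over all listed sites, and a region with no listed site has no value. Exact permutation of the libraries at 1 site, two-sided, cannot go below 0.333 for 2 against 2 or 0.1 for 3 against 3, so no test was made at single sites. Intervals for percentages are exact binomial 95% intervals that cover counting error only, and neighbouring sites of a gene are not independent.

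Of the 446 sites 39 reached within 1 kb of an annotated start of the member, 43 others overlapped its exons, 107 lay in introns, 150 upstream and 107 downstream. For 225 sites the closest protein-coding start was that of another gene, such as Twf2 and Alas1 at Tlr9, Cadm3, Ackr1 and Ifi206 at Aim2 or Pmepa1 at Zbp1. In 428 sites the groups did not overlap. Over all listed sites of the 12 tables with a member site this held for 84.3 to 99.6%, depending on the table. Libraries had on average 1.21 to 33.78 reads in a window at 3 wpi, 0.2 to 3.29 at 8 wpi and 3.97 to 10.3 at 24 wpi, where 1 read was worth 0.524 to 3.21, 0.449 to 3.47 and 0.639 to 1.56 normalized counts. At 3 wpi WT library 2 was shallow for H3.3 and Pu.1, with 3.06 and 2.75 reads per window beside 22.88 and 33.78 in WT library 1. Inside Daxx the H3K27ac site at chr17:33909801-33913400 had 113.15 and 93.68 in the Daxx-KO against 857.89 and 367.84 in the WT libraries at 24 wpi, in the direction the labels give. Of 6 HSPC markers with an H3K27ac promoter site at 24 wpi 4 were higher in Daxx-KO and 2 had sites in both directions. Neutrophil markers moved with genotype too, 4 of 5 being higher and 1 in both directions, while 3 of 3 erythroid markers were lower and B cell markers (1 of 3 higher, 2 in both directions) and T cell markers (2 of 3 lower, 1 in both directions) were mixed. A change in the makeup of the c-Kit+ cells and a change within cells cannot be told apart in these bulk libraries, and the part of the former in the values below was not tested.

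**Figure D1:**
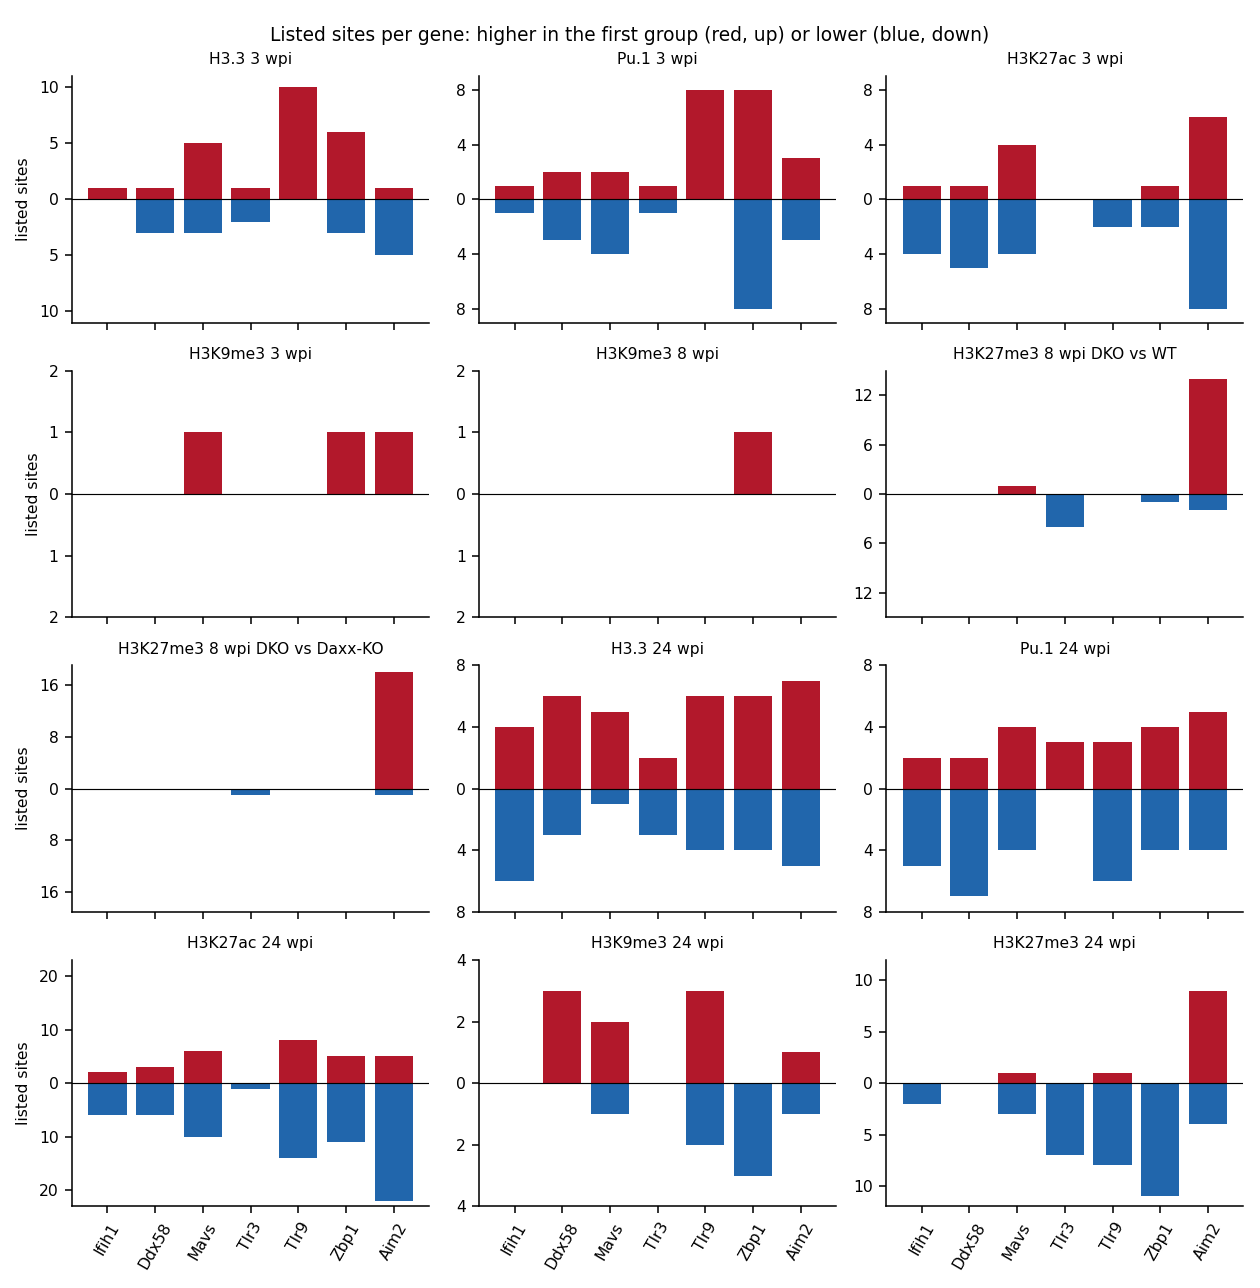
Number of listed sites at each of the 7 genes in each table (horizontal axis, tables named by mark and time, Daxx-KO against WT unless DKO is named), drawn as bars upwards in red for sites higher in the first group and downwards in blue for lower sites. Tlr9 has 10 of 10 H3.3 and 8 of 8 Pu.1 sites higher at 3 wpi, and Zbp1 has 11 of 11 H3K27me3 sites lower at 24 wpi.

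H3.3 sites of the members were divided much like those of the genome. At 3 wpi 25 of 41 were higher in Daxx-KO, 61.0% (44.5 to 75.8), beside 59.4% of all listed sites, and at 24 wpi 36 of 62, 58.1% (44.8 to 70.5), beside 52.6%. In both tables the groups overlapped at none of these sites, where over all sites they did not overlap in 98.4% and 98.3%. Pu.1 sites also sat close to the background. At 3 wpi 25 of 45 were higher, 55.6% (40 to 70.4) beside 56.0%, and at 24 wpi 23 of 53, 43.4% (29.8 to 57.7) beside 48.2%. Here too the groups did not overlap at any member site, beside 98.1% and 98.2% of all sites. At 24 wpi 1 group had no read at 5 of the 62 H3.3 sites, 8.06% beside 9.26% of all sites. For Pu.1 this held at 5 of 53, 9.43% beside 5.93%.

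H3K27ac was lower in Daxx-KO at most listed member sites. At 3 wpi 13 of 38 sites were higher, 34.2% (19.6 to 51.4) beside 41.5% of all sites, and at 24 wpi 29 of 99, 29.3% (20.6 to 39.3) beside 42.5%. The interval at 24 wpi lay below the value for the genome. Aim2 held 27 of these 99 sites, 5 of them higher. Tlr9 had 8 of 22 higher, Mavs 6 of 16, Zbp1 5 of 16, Ddx58 3 of 9, Ifih1 2 of 8 and Tlr3 0 of 1. The percentage was not computed without Aim2. At 24 wpi the member regions held 188 listed H3K27ac sites per Mb beside 78.6 over the autosomes. The background of this and the later densities covers whole chromosomes and not regions drawn around genes. Groups did not overlap at 38 of 38 sites at 3 wpi (97.6% of all sites) and at 94 of 99 at 24 wpi (97.3%). The median log2 ratio of the 99 sites was -1.06, close to the -1.01 of all sites. With reads divided by the mean reads per window in place of the authors' constant, the median of all H3K27ac sites shifted by 0.58 at 24 wpi. Log2 ratios are therefore given under both scalings for 24 wpi promoter sites of Ifih1, Ddx58, the first start of Mavs, Tlr9, Zbp1 and Aim2. Other H3K27ac ratios, those of inner Mavs starts and pathway genes included, are given under the authors' constant only.

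H3K27me3 was lower in Daxx-KO at most member sites of 24 wpi, but not at Aim2. Of 46 member sites 11 were higher, 23.9% (12.6 to 38.8) beside 41.2% of all sites, and the groups did not overlap at 45, beside 97.6%. In the gene bodies alone 4 of 10 sites were higher, 40%, close to the value for all sites. Aim2, whose body of 115 kb is the longest of the members, held 9 of the 11 higher sites, and 4 of its 13 sites were lower. The median log2 ratio was -1.14 beside -0.81 for all sites. Under the other scaling the median of all sites shifted by 0.34, and no member site of this table turned. In DKO at 8 wpi most member sites were higher, and most of the listed sites lay at Aim2. Aim2 had 14 of 16 sites higher against WT and 18 of 19 against Daxx-KO, the same direction as its 9 of 13 at 24 wpi. Tlr3 had 0 of 4 higher against WT and 0 of 1 against Daxx-KO, and against WT Zbp1 had 0 of 1 and Mavs 1 of 1. For all members against WT 15 of 22 sites were higher, 68.2% (45.1 to 86.1) beside 56.1%, and the groups did not overlap at 17, beside 89.6%. Against Daxx-KO 18 of 20 were higher, 90.0% (68.3 to 98.8) beside 65.3%, with 13 not overlapping, beside 84.3%. These comparisons share the 3 DKO libraries. The H3K27me3 comparison of Daxx-KO with WT at 8 wpi was left out, since its control columns name H3K9me3 libraries.

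Few H3K9me3 differences were listed at these genes. At 3 wpi 3 sites were listed, all higher in Daxx-KO (29.2 to 100%) beside 78.9% of all sites, which came to 5.69 per Mb beside 22.8 over the genome. At 8 wpi 1 site was listed for Daxx-KO against WT, higher in Daxx-KO, beside 65.2%. DKO against WT and DKO against Daxx-KO had none, where 81.4% and 73.4% of all sites were higher and 65.7% and 69.8% did not overlap. The groups did not overlap at the 4 sites at 3 and 8 wpi, beside 99.6% and 89.1% of all sites. At 24 wpi 16 sites were listed, of which 9 were higher, 56.2% (29.9 to 80.2) beside 48.1%, and none overlapped, beside 97.2% of all sites that did not. Their density was 30.3 per Mb beside 61.1.

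**Figure D2:**
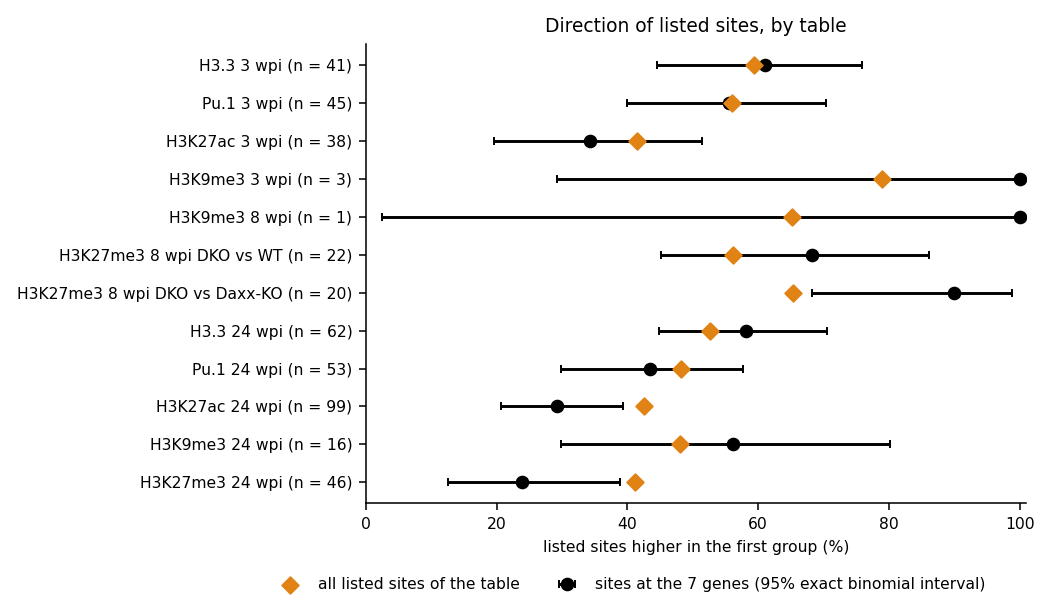
Percent of listed member sites that were higher in the first group of each table (black points, with exact binomial 95% intervals) and the same percent over all listed sites of the table (orange diamonds), on a scale from 0 to 100%. The interval lies below the diamond at 24 wpi for H3K27ac (29.3% beside 42.5%) and H3K27me3 (23.9% beside 41.2%, but 40% in the gene bodies alone). It lies above the diamond for H3K27me3 in DKO against Daxx-KO (90.0% beside 65.3%), where Aim2 held 19 of the 20 sites. Of the 99 H3K27ac sites of 24 wpi 27 lay at Aim2.

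Ifih1 (ENSMUSG00000026896.14, chr2:62595798-62646255, minus strand) had 35 sites, of which 11 were higher. H3.3 at its promoter, at chr2:62645501-62646200, was the single H3.3 site at 3 wpi, with 45.01 and 74.43 in Daxx-KO against 21.03 and 28.81 in WT, a log2 ratio of 1.23. H3K27ac at the promoter at 24 wpi, at chr2:62646251-62646950, had 85.42 and 103.92 in Daxx-KO against 72.61 and 259.47 in WT (-0.80, and -0.26 under the other scaling), and WT library 1 lay below both Daxx-KO libraries. Within the gene H3K27ac was lower at the other 4 sites of 24 wpi. The largest of these, at chr2:62618751-62619550 in an intron, had 1.5 and 0 in Daxx-KO against 35.75 and 70.40 in WT (-4.95). H3.3 was listed beside it, at chr2:62618451-62619050, with no read in Daxx-KO against 51.66 and 31.96 in WT, at least 12.4-fold lower against a floor of 3 reads per library. Thus both H3.3 and H3K27ac were nearly absent from these overlapping sites in the Daxx-KO libraries, and the rest of the intron is not described by them.

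Pu.1 differed strongly at Ifih1 in both directions. At chr2:62602801-62603800, over an exon, it had no read in Daxx-KO against 94.99 and 54.73 in WT at 24 wpi, at least 28.9-fold lower. A neighbouring site at chr2:62601701-62602350 had 0 and 18.81 beside 57.57 and 90.52 (-2.85), and at 3 wpi the site at chr2:62601501-62602150 had 3.15 and 4.86 beside 49.62 and 70.32 (-3.61). The Pu.1 signal over this end of the gene was thus lower at both times. In the opposite direction, the intron at chr2:62625701-62626750 had 102.24 and 110.74 in Daxx-KO against 0 and 2.11 in WT (5.71) at 24 wpi. Upstream, next to Gca, which encodes the calcium-binding protein grancalcin, H3K27ac was higher at chr2:62664151-62664750, with 1195.90 and 664.51 beside 396.55 and 503.91 (1.05), and H3K27me3 over the same place was lower, with 129.23 and 87.40 beside 212.86 and 298.42 (-1.23). At 3 wpi Pu.1 was higher there, with 83.49 and 123.21 beside 31.86 and 12.79 (2.16).

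Ddx58 (ENSMUSG00000040296.15, chr4:40203773-40239828, minus strand) had 45 sites, 18 of them higher. H3K27ac at its promoter was higher at 24 wpi. The site at chr4:40238651-40241050 had 674.38 and 575.23 in Daxx-KO against 403.25 and 383.67 in WT, a log2 ratio of 0.67, or 1.23 under the other scaling. Of the other 8 H3K27ac sites of that time 6 were lower. In the same promoter Pu.1 was lower, with 14.31 and 0 in Daxx-KO against 43.18 and 62.10 in WT at chr4:40239651-40240350 (-2.72). This region holds the interferon element match printed above and none to GAGGAAGT.

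Starts inside Ddx58 had lower Pu.1 as well. At chr4:40209001-40209750 Pu.1 had 6.82 and 2.09 beside 116.58 and 33.68 (-3.80), at chr4:40219601-40220450 it had 0 and 1.04 beside 28.79 and 43.15 (-4.60), and H3.3 at chr4:40208651-40209800 had no read beside 58.12 and 82.73, at least 20.9-fold lower. Of 9 Pu.1 sites at 24 wpi 2 were higher. One of them lay on the 31-bp repeat of the intron, at chr4:40235701-40236300, with 36.13 and 36.57 in Daxx-KO against 12.95 and 11.58 in WT (1.49). At 3 wpi the same place had the highest Pu.1 ratio of the gene, 189.04 and 138.62 beside 43.87 and 19.18 (2.34) at chr4:40235301-40236750, and H3.3 had 136.61 and 169.49 beside 32.25 and 44.53 (1.97) at chr4:40235201-40236450. Pu.1 and H3.3 were thus higher on the repeat in each of these 3 tables. Sites with so regular a period, with at least 70% of letters matching, made up 2 of the 41 H3.3 member sites and 2.46% of all H3.3 sites at 3 wpi. Among all sites they were more frequent where H3.3 was higher in Daxx-KO (3.84%) than where it was lower (0.447%). How reads that match several copies were placed is not given in the sources used here. H3K9me3 was higher at all 3 Ddx58 sites of 24 wpi, most at chr4:40232251-40233050, where Daxx-KO had 29.33 and 45.86 and WT had 0 and 1.87 (4.32).

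Mavs (ENSMUSG00000037523.13, chr2:131234063-131248025, plus strand) had 61 sites, 31 of them higher, and 11 at annotated starts, the most of any member. H3K27ac was higher around its first start at both times and mixed at its inner starts. At 3 wpi chr2:131234401-131235250 had 36.82 and 40.78 in Daxx-KO against 16.12 and 11.03 in WT (1.45). At 24 wpi chr2:131234001-131234600 had 527.51 and 298.59 beside 255.80 and 220.71 (0.79, or 1.37 under the other scaling). H3K27me3 over the same bases was lower, with 27.12 and 21.16 beside 46.68 and 79.96 at chr2:131234101-131234700 (-1.36), so that the active mark was higher and the repressive mark lower. At starts inside the gene H3K27ac was lower at 2 sites of 24 wpi, with 29.22 and 1.46 beside 69.26 and 75.94 at chr2:131241251-131242300 (-2.17, the largest H3K27ac ratio of Mavs at this time) and 19.48 and 32.20 beside 64.79 and 74.36 at chr2:131242601-131243500 (-1.39). It was higher at another, chr2:131240601-131241300, with 36.72 and 74.65 beside 25.69 and 20.57 (1.23). At 3 wpi H3.3 and Pu.1 were listed at identical coordinates of this promoter, chr2:131233651-131234650, in opposite directions. H3.3 had 52.12 and 142.96 beside 46.28 and 49.77 (1.01), and Pu.1 had 38.60 and 43.77 beside 71.56 and 95.89 (-1.01).

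A place upstream of Mavs carried differences in 4 tables. Its middle also holds repeated letters, so the limit on read placement given for the Ddx58 intron holds here too. At 3 wpi Pu.1 had 150.45 and 149.97 in Daxx-KO against 25.07 and 38.36 in WT (2.21), and H3.3 had 104.23 and 159.17 beside 28.75 and 10.48 (2.69). H3.3 was higher there at 24 wpi too, with 29.81 and 38.48 beside 5.53 and 11.28 (1.90). Pu.1 was then lower, at the coordinates of 3 wpi, with 44.99 and 37.61 beside 181.35 and 90.52 (-1.69). The WT libraries therefore had the lower Pu.1 values at 3 wpi and the higher ones at 24 wpi. Inside the gene H3.3 was higher at 3 of 3 sites over its last exons at 24 wpi, with log2 ratios from 2.00 to 3.40, and Pu.1 was higher just past its end, at chr2:131248701-131249800, with 104.97 and 37.61 beside no read in WT, at least 19-fold. H3K9me3 was listed upstream at 3 wpi, at chr2:131221651-131222550, with 13.95 and 16.67 beside no read, at least 6.99-fold higher, and at 24 wpi at chr2:131217351-131218300, with 35.70 and 87.55 beside 3.11 and 0 (4.62).

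**Figure D3:**
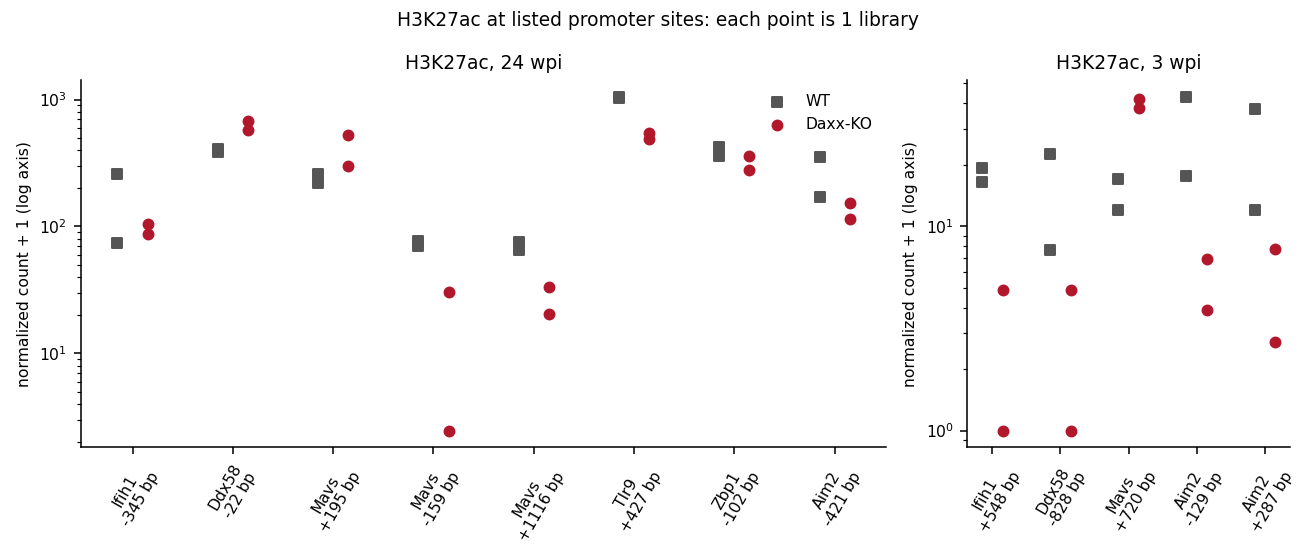
H3K27ac at promoter sites of the members at 24 wpi (left, the 8 sites that overlap an exon of the gene, named with the distance in bp of their middle from the nearest annotated start) and at 3 wpi (right, all 5 sites), as normalized count + 1 on a log axis. Grey squares are WT libraries and red circles Daxx-KO libraries. At 24 wpi Ddx58 (0.67) and the first Mavs start (0.79) lie higher in Daxx-KO and the sites at inner Mavs starts (-2.17 and -1.39), Tlr9 (-1.0) and Aim2 (-0.97) lower, while Ifih1 and Zbp1 overlap, and the Zbp1 ratio of -0.29 is 0.28 under the other scaling.

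Tlr3 (ENSMUSG00000031639.12, chr8:45395665-45411080, minus strand) had 26 sites, the fewest, and 7 of these were higher. H3K27me3 was lower at each of its 12 sites in 3 tables. Of all sites 41.2% were higher in Daxx-KO at 24 wpi, 56.1% in DKO against WT and 65.3% in DKO against Daxx-KO. At 24 wpi all 7 were lower in Daxx-KO, 6 downstream of the gene towards Fam149a and 1 upstream. The highest of them, at chr8:45382201-45384100, had 405.23 and 285.18 in Daxx-KO against 571.36 and 623.96 in WT (-0.79). In DKO at 8 wpi the broad region at chr8:45379901-45382550 had 266.04, 160.70 and 215.75 beside 540.55, 468.31 and 661.78 in WT (-1.37), and the site next to the end of Tlr3, at chr8:45394251-45395050, had 0, 4.02 and 1.24 beside 11.53, 8.69 and 11.85 in Daxx-KO (-2.09). The groups were apart at all 12, beside 97.6%, 89.6% and 84.3% of all sites in these tables. These ratios kept their sign under the other scaling, with values from -0.31 to -2.50.

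A single H3K27ac site was listed at Tlr3, and it lay upstream, where H3K27me3 was listed as well. At chr8:45414701-45415750 H3K27ac had 17.23 and 38.06 in Daxx-KO against 92.71 and 153.47 in WT (-2.12), and at chr8:45414651-45415700 H3K27me3 had 11.97 and 23.92 beside 70.95 and 49.97 (-1.7). The active and the repressive mark were both lower there. Further upstream H3.3 was higher at both times, at chr8:45427751-45428550 with 36.32 and 56.01 beside 14.72 and 10.48 at 3 wpi (1.79) and at chr8:45427651-45428400 with 32.02 and 52.06 beside 11.07 and 6.58 at 24 wpi (2.13). Pu.1 was higher there at 3 wpi, with 63.01 and 59.99 beside 18.28 and 25.57 (1.45). Within the gene Pu.1 was listed at 24 wpi at chr8:45406401-45407150, with 46.35 and 62.69 beside no read, at least 14.5-fold higher, and H3.3 at an internal start, chr8:45397601-45398200, with 39.74 and 67.91 beside 3.69 and 0 (4.27).

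Tlr9 (ENSMUSG00000045322.10, chr9:106222598-106226883, plus strand) is a short gene and had 75 sites, 39 of them higher and 52 closest to Twf2 or Alas1. At 3 wpi H3.3 was higher at 10 of 10 sites and Pu.1 at 8 of 8, where 59.4% and 56.0% of all sites were higher. H3.3 at chr9:106225551-106226450 over the last exon had 67.91 and 114.22 in Daxx-KO against 35.76 and 28.81 in WT (1.47), and Pu.1 at chr9:106223951-106225250 had 129.97 and 141.05 beside 78.87 and 41.55 (1.16). The largest ratios lay in the flanks. H3.3 at chr9:106212401-106213000 had 32.38 and 61.90 beside 7.01 and 0 (3.42), and Pu.1 at chr9:106240601-106241300 had 90.58 and 58.36 beside 17.76 and 0 (2.93). WT library 2 had the lowest value at 8 of these 10 H3.3 sites and at 7 of the 8 Pu.1 sites, and it is the shallow library, in which 1 read was worth 2.63 (H3.3) and 3.21 (Pu.1) normalized counts. The groups did not overlap at any of these 18 sites, beside 98.4% (H3.3) and 98.1% (Pu.1) of all sites that did not. Leaving out WT library 2 could therefore not change a direction. The Tlr9 sites were rich in GC, with medians of 55.6% and 54.0% beside 50.8% and 51.1% for all higher and 46.9% and 46.8% for all lower sites. The part of depth and of GC content in these directions was not tested.

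At 24 wpi the Tlr9 sites no longer shared a direction. H3.3 was higher at 6 of 10 and Pu.1 at 3 of 9. Over the gene itself both were higher. H3.3 at chr9:106222851-106224450 had 105.98 and 466.31 in Daxx-KO against 38.74 and 2.82 in WT (3.72), and Pu.1 at chr9:106222701-106223450 had 36.81 and 125.37 beside 27.35 and 34.73 (1.36), the second Daxx-KO library being the higher one at both. H3K27ac over the promoter was lower, with 489.30 and 547.42 beside 1046.67 and 1033.92 at chr9:106221651-106224400 (-1.0, or -0.45 under the other scaling). At the bases around the start H3K27me3 was lower, with 20.74 and 11.96 beside 87.76 and 31.41 at chr9:106221951-106222600 (-1.80), and inside the gene it was higher, with 55.04 and 32.20 beside 14.94 and 14.28 at chr9:106223101-106223750 (1.52). H3K9me3 inside the gene, at chr9:106223551-106224250, had 0 and 8.34 beside 37.31 and 20.61 (-2.53). Just after the start H3.3, Pu.1 and H3K27me3 were thus higher and H3K27ac and H3K9me3 lower in Daxx-KO, whereas towards the end of the gene H3K27me3 was lower at the 1 listed site. The largest H3K27ac site of the region, at chr9:106244251-106248450 towards Alas1, which encodes the first enzyme of haem synthesis, was higher in Daxx-KO, with 3304.46 and 2559.98 beside 1968.23 and 1594.78 (0.72).

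**Figure D4:**
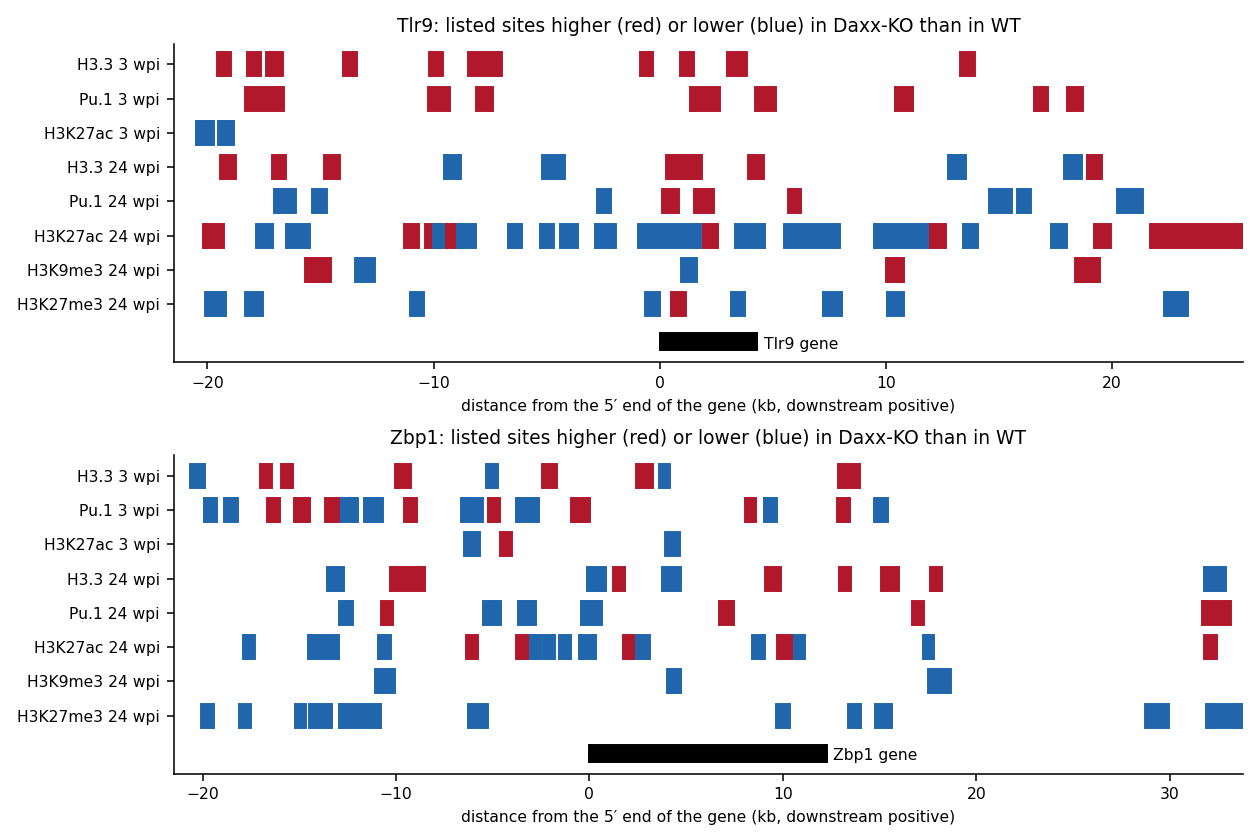
Listed sites along Tlr9 and Zbp1, each drawn at its distance in kb from the 5′ end of the gene in the direction of transcription, with one row for each table of Daxx-KO against WT. Red marks are sites higher in Daxx-KO and blue marks lower sites. At Tlr9 the H3.3 and Pu.1 rows of 3 wpi are red throughout (10 and 8 sites), and at Zbp1 the H3K27me3 row of 24 wpi is blue throughout (11 sites).

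Zbp1 (ENSMUSG00000027514.14, chr2:173206612-173218923, minus strand) had 79 sites, of which 32 were higher. All 11 H3K27me3 sites at 24 wpi were lower in Daxx-KO, beside the 41.2% of all sites that were higher. The largest ratio lay over an exon, at chr2:173208551-173209300, with 7.98 and 13.80 in Daxx-KO against 66.29 and 39.98 in WT (-2.19). The highest values lay downstream, at chr2:173184951-173187050, with 291.16 and 341.30 beside 417.32 and 661.09 (-0.77). The groups overlapped at 1 of the 11, at chr2:173224151-173225200, where the values were 32.71 and 42.32 beside 120.43 and 32.84. Without WT library 1 that site was higher in Daxx-KO. Of the 11, 5 lay closer to the start of Pmepa1, which encodes an inhibitor of TGF-beta signalling. H3K9me3 was lower at all 3 sites of 24 wpi, and at chr2:173214201-173214900 it had no read in Daxx-KO beside 40.42 and 20.61 in WT, at least 12.1-fold lower. Before that it was higher at the single site of 3 wpi, chr2:173198401-173199050, with 9.30 and 18.33 beside 0 and 1.16 (3.23), and at that of 8 wpi, chr2:173194701-173195400, with 12.66, 10.12 and 21.39 beside 4.74, 0 and 5.00 (1.89).

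Pu.1 at the Zbp1 promoter was higher at 3 wpi and lower at 24 wpi. At chr2:173218901-173219850 the Daxx-KO libraries of 3 wpi had 100.82 and 98.09 and the WT libraries 42.83 and 63.93 (0.89). The overlapping site at chr2:173218251-173219350 had 49.08 and 37.61 beside 128.10 and 119.99 at 24 wpi (-1.50). H3.3 was lower there at 24 wpi, with 7.73 and 0 beside 52.58 and 86.49 at chr2:173218051-173219050 (-3.86). H3K27ac of this promoter differed little, with 358.17 and 275.17 beside 417.77 and 355.19 at chr2:173218601-173219450, and the ratio of -0.29 became 0.28 under the other scaling, the one member site that turned. At the start Pu.1 and H3.3 were thus clearly lower in Daxx-KO, while the H3K27ac libraries of the groups overlapped. Of the 10 H3.3 sites of 24 wpi, that of the start included, 6 were higher, 3 of which lay in the 20 kb past the end of the gene. The largest of these, at chr2:173202901-173203850, had 27.60 and 121.11 beside 1.84 and 3.76 (4.31). A Pu.1 site just beyond, at chr2:173201601-173202250, had 231.07 and 59.55 beside 12.95 and 8.42 (3.65).

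Aim2 (ENSMUSG00000037860.15, chr1:173350879-173466040, plus strand) is 115 kb long because of 1 long transcript that also spans Cadm3, an adhesion molecule gene, while its other annotated starts lie between 173419196 and 173455488. It had 125 sites, 70 of them higher and 71 closest to another gene. In HSPCs of DKO mice at 8 wpi H3K27me3 was higher across the region, at 14 of 16 sites against WT and 18 of 19 against Daxx-KO. Of all sites 56.1% and 65.3% were higher in these comparisons. At chr1:173399951-173401050 the DKO libraries had 16.32, 38.20 and 19.85 and the Daxx-KO libraries 6.59, 5.43 and 6.58 (1.84). At chr1:173399951-173400700 the values were 6.79, 30.57 and 13.08 in DKO and 6.12, 1.81 and 0 in WT (2.29). DKO library 2 was the highest library at most of these sites and reached 204.05 beside 82.87 and 106.70 at chr1:173376101-173377650, where Daxx-KO had 69.19, 46.73 and 65.15 (1.11). Without this library the site counts stayed within 1 site of these. At 24 wpi 9 of 13 H3K27me3 sites were higher in Daxx-KO, where 41.2% of all sites were, and all 9 lay upstream of or within 31 kb of the long start, among Ackr1 and Cadm3. The single site nearer to the other Aim2 starts, at chr1:173407601-173408200, was lower, with 6.38 and 7.36 beside 42.01 and 24.27 (-2.12).

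**Figure D5:**
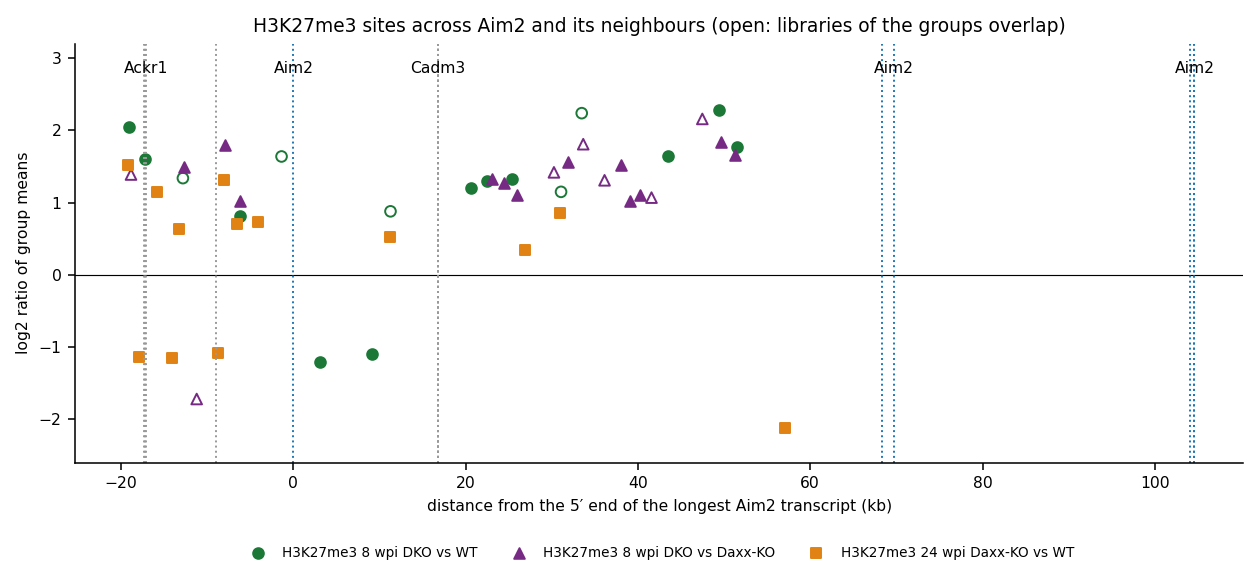
H3K27me3 sites across Aim2 and its neighbours, as log2 ratio of group means (vertical axis) by distance in kb from the 5′ end of the longest Aim2 transcript. Colours stand for the 3 tables, filled points are sites at which the libraries of the groups do not overlap and open points sites at which they do, and dotted lines are annotated starts of Aim2 (blue) and of Cadm3 and Ackr1 (grey). In both DKO comparisons most points lie above 0, 14 of 16 against WT and 18 of 19 against Daxx-KO.

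H3K27ac at Aim2 was lower at 22 of 27 sites at 24 wpi, where 42.5% of all sites were higher. Lower sites lay over the shorter transcripts, but not without a break, since chr1:173425251-173425900 was higher (1.0). Broad lower sites were at chr1:173450301-173453500 and chr1:173439951-173442300. The first had 200.07 and 248.83 in Daxx-KO against 589.80 and 510.24 in WT (-1.29). The second had 206.06 and 188.81 beside 444.58 and 407.40 (-1.11). At the promoter, chr1:173418201-173419350, the values were 113.15 and 152.22 beside 169.79 and 351.23 (-0.97, or -0.42 under the other scaling). A second start, at chr1:173419901-173420500, had 32.97 and 39.52 beside 62.55 and 105.21 (-1.19, or -0.65). All 3 starts listed at this time were lower. At 3 wpi H3K27ac was lower at 8 of 14 sites, close to the value for all sites, of which 41.5% were higher. Among the lower sites was chr1:173350201-173351300 at the long start, with 2.91 and 5.95 beside 41.91 and 16.55 (-2.48). The intron at chr1:173441201-173441900 was then higher, with 75.58 and 88.35 beside 39.76 and 49.65 (0.86), inside a site that was lower at 24 wpi. H3.3 was lower at 5 of 6 sites at 3 wpi, where 59.4% of all sites were higher. It was lowest at chr1:173369101-173370650 near Cadm3, with 13.42 and 8.84 beside 117.09 and 123.11 (-3.32). H3K9me3 was higher at the start of Cadm3 at 24 wpi, with 38.25 and 66.70 beside 0 and 1.87 at chr1:173367451-173368300 (4.79).

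Sites of the same mark that overlapped between 3 and 24 wpi, from different mice, did not always keep their direction. For H3.3 10 of 12 overlapping pairs had the same direction (83.3%, beside 51.2% of all overlapping pairs of listed sites), for Pu.1 8 of 14 (57.1% beside 48.1%) and for H3K27ac 11 of 20 (55.0% beside 59.8%). A site that overlaps several others is in several pairs. The pairs with opposite directions lay at Ddx58, Mavs, Tlr9, Zbp1 and Aim2.

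Promoters of 59 other genes of these pathways were counted in 6 lists, for those with a site that reached within 1 kb of a start, whose groups did not overlap and whose higher group had a mean of at least 10. Over the 11425 protein-coding genes with such a site of H3K27me3 at 24 wpi, 69.3% were lower only and 21.1% higher only. Of the 28 pathway genes with such a site, 26 were lower only, none was higher only and 2 were both. Among them were Cgas, which encodes the cytosolic DNA sensor cGAS, with 27.12 and 43.24 in Daxx-KO beside 139.11 and 141.36 in WT (-1.96), Unc93b1, the chaperone of endosomal Toll-like receptors, with 100.51 and 73.60 beside 405.18 and 296.99 (-2.00), and Trex1, a DNA exonuclease, with 18.35 and 35.88 beside 122.30 and 97.09 (-1.98). Irf5 and Myd88 were those with both directions. In DKO at 8 wpi Cgas had the opposite direction, H3K27me3 being higher than in WT (3.35).

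H3K27ac promoters at 24 wpi gave 8 genes higher only, 20 lower only and 23 both, of 51. Over all genes with such a site the shares were 33.2%, 26.2% and 40.5%. In the list of cytosolic DNA sensing 8 of 10 genes were lower only and none higher only, also under the other scaling. Cgas had 393.39 and 223.94 beside 702.62 and 655.79 (-1.14), Ifi204, a relative of Aim2, had 202.31 and 251.75 beside 455.75 and 649.46 (-1.28), and Casp1, the protease of inflammasomes, had 25.48 and 36.59 beside 112.82 and 125.78 (-1.91). Cgas was thus lower in both H3K27ac and H3K27me3. In contrast Myd88, the adaptor of Tlr9, was higher, with 1497.87 and 1610.05 beside 1032.15 and 946.11 (0.65), as was Unc93b1, with 2874.35 and 2478.01 beside 1801.79 and 1567.10 (0.67). RNA sensing genes were split, 3 higher only, 4 lower only and 5 both, and 4 and 3 under the other scaling.

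H3.3 promoters at 3 wpi were higher only at 27 of 34 genes beside 68.7%, and Pu.1 promoters at 24 of 35 beside 69.4%. H3K27ac promoters at 3 wpi were lower only at 21 of 33 beside 66.7%, and H3K9me3 promoters at 24 wpi were higher only at 16 of 23 beside 58.9%. H3.3 promoters at 24 wpi were higher only at 14 of 41 genes (39.0% of all genes with such a site). They were lower only at 9 (32.9%) and in both directions at 18 (28.1%). Pu.1 promoters of that time were higher only at 13 of 36 (29.9%), lower only at 12 (40.2%) and both at 11 (29.9%). H3K27me3 promoters in DKO were higher only at 6 of 7 genes against WT, beside 56.7%, and at 1 of 4 against Daxx-KO, beside 49.3%. Among the genes with higher H3K9me3 at 24 wpi were Stat2, with 47.18 and 47.94 beside no read in WT, and Irf3, the factor that Mavs and Tlr3 signals activate, with 19.13 and 83.38 beside no read.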

How the data were processed

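CUT&Tag libraries of mouse HSPCs were sequenced by the authors, and the submitters' processing notes name CASAVA 1.8.4, cutadapt 1.13, STAR 2.5.3, bedtools and the mm10 genome. The deposited tables were made by the authors with diffReps 1.55.6 (windows of 600 bp in steps of 50 bp, negative binomial test, window p cutoff of 0.0001), per the file headers. They hold normalized counts per library, the unit used here, and the authors' group averages, fold changes, p-values and adjusted p-values, which were not used. Only sites that passed that test are listed, and the tables of 24 wpi leave out X and Y. One table, H3K27me3 of Daxx-KO against WT at 8 wpi, was left out because its controls are H3K9me3 libraries.

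The 7 genes and the lists were chosen with earlier results of these data known. Sites overlapping a gene body or its 20 kb flanks were taken with GENCODE M21. Group means, directions and log2 ratios (pseudocount 1) were computed with Python 3.11.15, numpy 2.4.6, pandas 2.3.3 and scipy 1.17.1, and figures with matplotlib 3.10.9. Sites to name were those within 1 kb of an annotated start, per gene and table the largest ratio among sites whose groups did not overlap and whose higher group had a mean of at least 10, and places where sites of 3 or more tables overlapped. Other named sites, such as those with the highest values, were chosen after their values were seen. Pathway genes were named from promoter sites under the same conditions. All values were whole reads within 0.1 after division by the constant of the library. The scripts were tested on simulated data. Replicates of a group carry different mouse numbers, apart from 1 WT mouse of 3 wpi that is given without a number. Alternatives left out each library, took the gene body alone or other flanks, joined neighbouring sites, changed the pseudocount, kept only larger, higher or non-overlapping sites, or scaled reads by the mean reads per window. One sequence and one pathway gene are not reported here.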

Additional observations from a re-analysis of the deposited data

Results flagged for a closer look

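Sites of the same mark that were listed at overlapping positions at 3 and 24 wpi drew attention where every Daxx-KO library lay on one side of the WT libraries at the first time and on the other side at the second. The mice of the times differ, and the difference between times was not tested. For H3.3 the log2 ratio was -2.62 at 3 wpi and 1.98 at 24 wpi at chr4:40194751 near Ddx58, and 1.43 and -3.63 at chr9:106235851 near Tlr9. For Pu.1 it was 2.21 and -1.69 upstream of Mavs, -1.39 and 1.03 at the end of Mavs, 1.26 and -4.05 near Tlr9, 0.89 and -1.50 at the Zbp1 promoter, and 0.73 and -2.54 and -1.36 and 2.71 at the sites upstream of Zbp1. For H3K27ac it was 2.17 and -0.98 in the first part of Mavs, past its promoter,, 0.78 and -0.92 and then 2.18 and -1.06 downstream of Mavs, -2.13 and 0.47 and then -1.29 and 0.47 near Twf2, -1.73 and 1.03 upstream of Zbp1, and 2.09 and -1.61, 1.32 and -0.96, and 0.86 and -1.11 within Aim2.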

How the results depend on the processing

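The percentages of member sites that were higher gave 172 values under the alternatives, and 170 of them stayed within the interval of the reported value. The 2 that did not came from counting the gene bodies alone, without flanks. H3K27me3 in DKO against Daxx-KO then gave 100% (14 of 14) and H3K27me3 in Daxx-KO at 24 wpi 40% (4 of 10). These bodies include the 115 kb of Aim2, the member that held 9 of the 11 higher sites of 24 wpi. Bodies and flanks were not counted without Aim2. With each library left out in turn the percentages ranged from 28.3 to 31.3 for H3K27ac and from 23.9 to 26.1 for H3K27me3 at 24 wpi. For H3K27me3 they ranged from 63.6 to 68.2 in DKO against WT and from 90.0 to 95 in DKO against Daxx-KO. In the other tables the groups overlapped at no member site, so leaving out a library could not change a percentage or a count per gene. Such fixed values are among the 170. Of 199 counts of higher sites per gene under alternatives added after seeing the data, 197 stayed within 1.5 times. Ifih1 had 1 higher H3K27ac site at 24 wpi in place of 2 without Daxx-KO replicate 1, and Zbp1 had 1 higher H3K27me3 site in place of 0 without WT replicate 1. The H3K27ac ratio of the Zbp1 promoter at 24 wpi turned from -0.29 to 0.28 with reads scaled by the mean reads per window. The H3K9me3 comparisons of DKO list no member site and gave no value. No paired analysis was possible because the results come from no test and the replicate numbers name different mice. Low depth limits the values of H3K27ac and H3K9me3 at 3 wpi and of both marks at 8 wpi, and those of WT library 2 of H3.3 and Pu.1 at 3 wpi.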
